A study of Sus scrofa with 21 samples.

Results

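The 94 probe sets described here had a deposited log2 value above 3 in all 9 infarct core arrays and in none of the 12 arrays of non-infarcted myocardium, out of 24123 probe sets on the array. They were chosen by these values. The choice is one of probe sets, since for some of the genes another probe set was above 3 in every array. The study followed left ventricular remodelling in female Landrace x Large White pigs, in which a myocardial infarction (MI) was made by tying off a marginal branch of the circumflex artery for good. Infarct core (IC), the middle of the left ventricular scar, and remote myocardium (RM), the non-infarcted interventricular septum of the same heart, were taken from 3 pigs each 1, 4 and 6 weeks later, and control myocardium (CM) from 3 further pigs whose labels call them sham operated. The study's methods call the control animals healthy, so whether they had surgery is not settled. For the stages called 1, 4 and 6 weeks the labels give 6, 30 and 45 days. Each of the 21 samples was hybridized to 1 Affymetrix GeneChip Porcine Genome Array, and the groups are IC at 1, 4 and 6 weeks, RM at 1, 4 and 6 weeks, and CM, with 3 arrays each from 3 separate pigs. RM is a different wall of the ventricle from IC, so that region and infarction cannot be told apart in a comparison of the 2.

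After an infarction, dead heart muscle is cleared by neutrophils and macrophages, and fibroblasts and their contractile form, the myofibroblasts, fill the gap with granulation tissue. This tissue is laid down on a provisional matrix rich in fibronectin and versican and matures into a collagen scar, while the cell division and inflammation of the first days wane. RMA values are relative levels on a log2 scale, on which a difference of 1 is a factor of 2, and a low value is made of non-specific signal as well as of target. Tissue RNA was measured in bulk, so fewer cells of a type and less RNA per cell cannot be told apart.

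The platform annotation gave 1 gene symbol to 27 of the 94 probe sets (28.7%), against 51.1% of the 12404 probe sets tested, and none to the other 67. The 27 symbols are 27 different genes. Of them 7 encode secreted or extracellular matrix proteins (FN1, VCAN, THBS3, SULF2, TSKU, C1QTNF6 and HTRA4), and 5 act in immune signalling or mark myeloid cells (ACP5, IL18, CCL19, TLR6 and JAK3). A kinase below the MAP kinases (RPS6KA1), a kinetochore protein (CENPH) and the transcription factors PKNOX2 and TCFL5 were also among them. The remaining 11 were MYO5A, ZDHHC14, VWA5A, TMEM26, TRIM52, MOCS2, MCUB, TOR3A, INPP5B, HSPA8 and LOC574051. Of the gene lists set up for this tissue, the matricellular glycoproteins held 2 of these genes (FN1 and THBS3, of 17 genes measured), the proteoglycans 1 (VCAN, of 12) and the chemokines and cytokines 2 (CCL19 and IL18, of 25), and the other lists held none.

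Levels and differences varied widely among the 94. Their mean over the IC arrays ran from 3.35 to 9.24 with a median of 4.34, whereas the median over the 94 was 2.28 for the RM mean and 2.17 for the CM mean. IC minus CM ran from 0.65 to 7.16 (median 2.25) and was at least 2 for 61 of them. That the IC arrays do not overlap with the others was fixed by the choice, and no test was made of it. These are differences in signal, and where RM and CM lay near the floor of the array, as for FN1, they may understate those in mRNA.

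**Figure D1:**
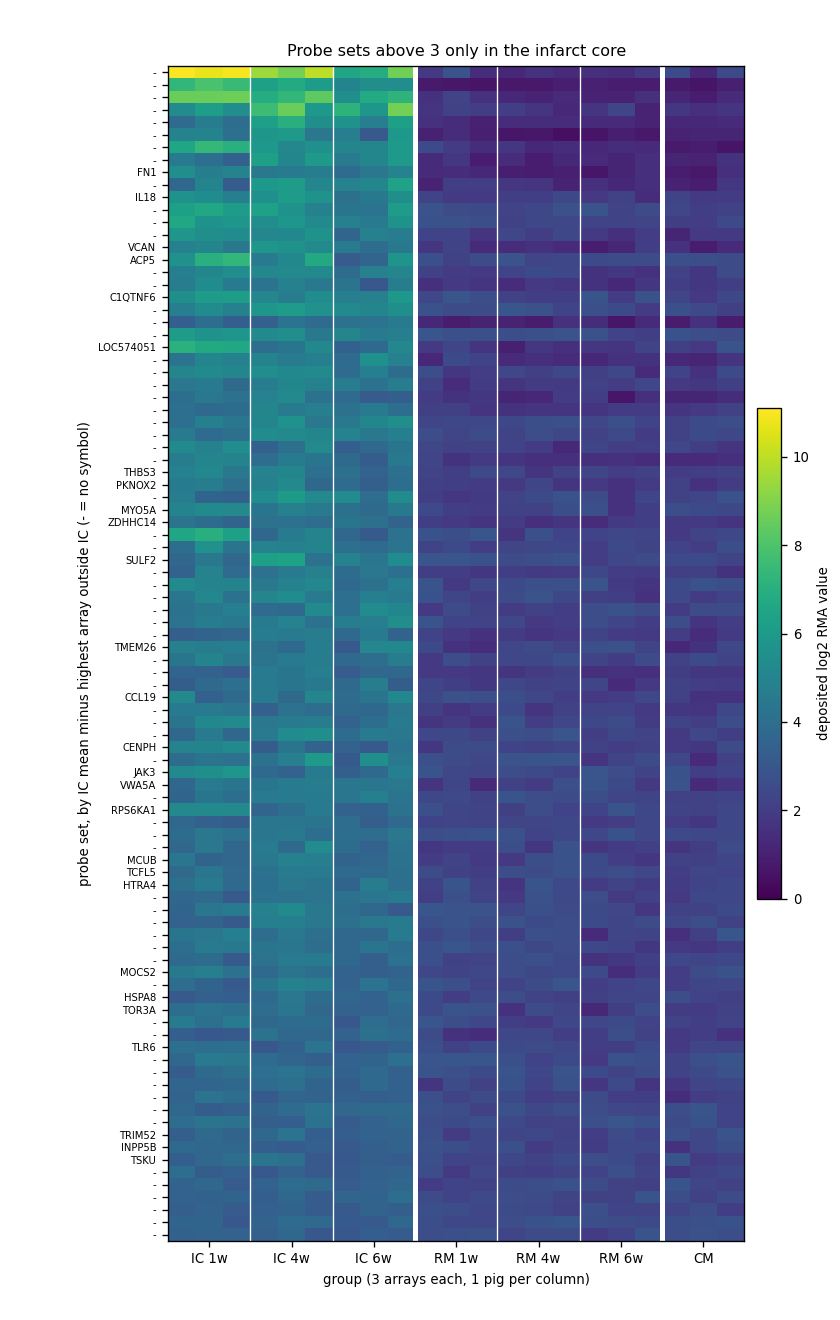
Deposited log2 RMA values of the 94 probe sets (rows, ordered by the IC mean minus the highest array outside IC, named where the platform gives a symbol) in the 21 arrays (columns, 3 pigs per group). The 9 IC columns are brighter than the 12 RM and CM columns in every row, as the choice required, and the brightest rows at the top carry no symbol.

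Whether the genes were silent in RM and CM could not be told from these values, because a low value can be non-specific signal or weak expression. Of 34 measured genes that are known from organs other than the heart, 30 were at or below 3 in all 21 arrays. The median of these 34 was 0.99 to 1.23 in IC arrays, 1.22 to 1.43 in RM arrays and 1.22 to 1.36 in CM arrays, below that of the 94. The median of the 94 was 3.86 to 4.56 in IC arrays, 2.10 to 2.37 in RM arrays and 2.04 to 2.24 in CM arrays. In 66 of them the highest RM or CM array was above 2.5. It was under 2 in 7, of which FN1 is the only one with a symbol.

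Distance from the threshold varied widely. The lowest IC array lay above the highest RM or CM array by 0.07 to 3.99 (median 0.89), by at least 1 in 41 probe sets and by under 0.5 in 28. Just inside the threshold were TLR6, whose lowest IC array was 3.01, and a probe set with no symbol at 3.02 in its lowest IC array and 2.95 in its highest outside it. The highest values outside IC were 2.99 for another with no symbol and 2.98 for C1QTNF6. Just outside were KDELR3, at 2.99 in 1 IC array of 6 weeks, and PSAP, REEP3 and PYCR1, at 3.01, 3.01 and 3.02 in 1 RM array each. In all, 98 probe sets missed the choice by 1 array, 69 of them by an IC array.

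**Figure D2:**
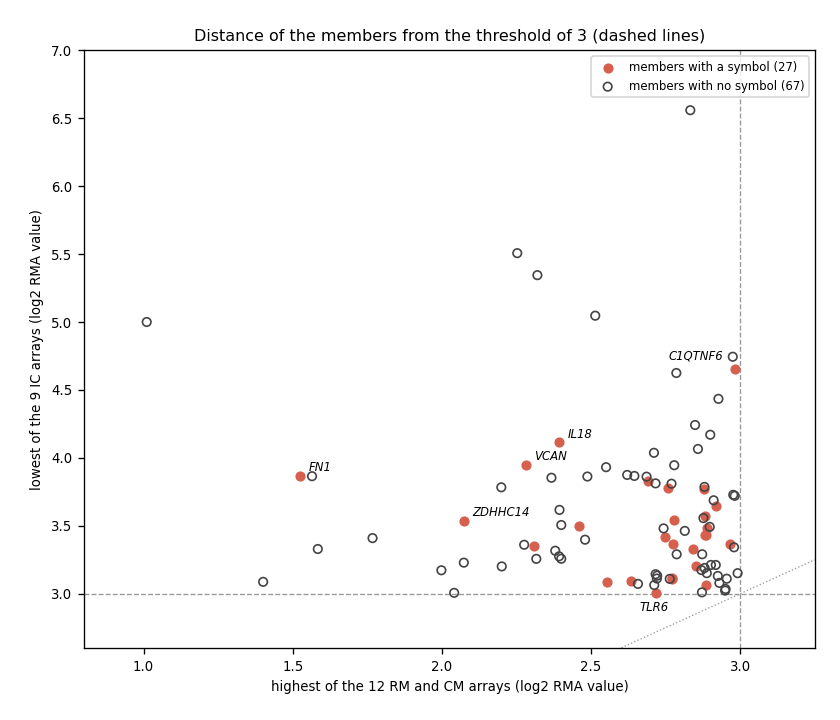
For each of the 94 probe sets, the lowest of the 9 IC arrays (vertical axis) against the highest of the 12 RM and CM arrays (horizontal axis), both as log2 RMA values, with dashed lines at 3. Most points crowd towards the corner where both lines meet, while FN1, VCAN, IL18 and a few probe sets with no symbol lie well clear of it.

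The matrix genes included the best separated of the named genes. The FN1 probe set, for fibronectin, the glycoprotein that ties integrins to provisional matrix, had 5.42, 4.66 and 4.95 in IC at 1 week, 4.45, 4.52 and 4.67 at 4 weeks and 3.87, 4.40 and 4.90 at 6 weeks, against 0.67 to 1.53 in RM and 0.75 to 1.48 in CM. Its IC mean was 4.65 ± 0.43 (SD, n = 9), its RM mean 1.13 ± 0.28 (SD, n = 9) and its CM mean 1.04 ± 0.39 (SD, n = 3). The IC values of the 3 stages overlapped, and none of the stage differences passed the test in limma (-0.47, -0.62 and -0.16 for 4 against 1, 6 against 1 and 6 against 4 weeks).

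VCAN encodes versican, a large chondroitin sulphate proteoglycan of provisional matrix. Its probe set had 4.88, 5.07 and 4.44 in IC at 1 week, 5.90, 5.65 and 5.33 at 4 weeks and 4.55, 3.95 and 4.49 at 6 weeks, against 0.91 to 2.28 in RM and 0.83 to 1.59 in CM. All 3 values of 6 weeks were below the 3 of 4 weeks. VCAN fell by 1.29 ± 0.29 (SE) at 6 weeks relative to 4 weeks (limma, adjusted p = 0.0189), a call that was lost without pig 18 of 4 weeks (adjusted p = 0.0587) or pig 3 of 6 weeks (adjusted p = 0.0796).

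THBS3, thrombospondin 3, a calcium-binding glycoprotein of the pericellular matrix, had 4.86, 5.18 and 4.45 in IC at 1 week, 4.93, 5.07 and 4.07 at 4 weeks and 4.10, 3.5001 and 4.04 at 6 weeks, against 1.72 to 2.46 in RM and 1.91 to 2.19 in CM. It fell by 0.95 ± 0.25 (SE) at 6 weeks relative to 1 week (limma, adjusted p = 0.0160), with all values of 6 weeks below those of 1 week. Without pig 8 of 1 week or pig 3 of 6 weeks the call was lost (adjusted p = 0.0689 and 0.0877).

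SULF2 encodes an extracellular sulphatase that trims 6-O-sulphates from heparan sulphate. It had 3.64, 4.44 and 3.67 in IC at 1 week, 6.27, 6.45 and 4.15 at 4 weeks and 4.92, 4.37 and 5.39 at 6 weeks, against 2.00 to 2.92 in RM and 2.28 to 2.48 in CM. It rose by 1.70 ± 0.41 (SE) at 4 weeks relative to 1 week (limma, adjusted p = 0.0136), although pig 22 of 4 weeks was below the highest value of 1 week. Leaving out pig 18 or 20 of 4 weeks or pig 7 or 9 of 1 week ended the call (adjusted p = 0.0532 to 0.0718).

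The other 3 secreted proteins showed no stage difference past the test. C1QTNF6, a secreted C1q and TNF related protein, had 4.65 to 6.19 in IC, against 1.93 to 2.98 in RM and 1.84 to 2.41 in CM, and its mean was 5.95 at 1 week, 5.07 at 4 weeks and 5.16 at 6 weeks. HTRA4, a secreted serine protease, had 3.57 to 4.73 in IC, against 1.69 to 2.88 in RM and 1.96 to 2.39 in CM. TSKU, the small leucine-rich protein tsukushi, had only 3.06 to 4.26 in IC, against 2.10 to 2.72 in RM and 1.97 to 2.89 in CM.

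Among the immune genes, ACP5 encodes tartrate-resistant acid phosphatase, an enzyme of osteoclasts and activated macrophages. It had 5.60, 7.04 and 7.33 in IC at 1 week, 4.55, 5.14 and 6.76 at 4 weeks and 3.20, 3.64 and 5.75 at 6 weeks, against 2.19 to 2.85 in RM and 2.56 to 2.70 in CM. The widest spread of the named genes was here (SD of 1.46 over the 9 IC arrays), and pig 22 at 4 weeks and pig 5 at 6 weeks stood above the other pigs of their stage. ACP5 fell by 2.46 ± 0.56 (SE) at 6 weeks relative to 1 week (limma, adjusted p = 0.0078), though pig 5 overlapped with 1 week and a fit of these 2 groups alone gave an adjusted p of 0.0643.

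IL18, a cytokine released after cleavage by the inflammasome, had 5.66, 5.39 and 4.80 in IC at 1 week, 5.59, 6.10 and 5.71 at 4 weeks and 4.12, 4.50 and 5.54 at 6 weeks, against 1.40 to 2.39 in RM and 1.87 to 2.28 in CM. With a gap of 1.73 it was among the best separated of the named genes. Its difference of 6 against 4 weeks, -1.08 ± 0.30 (SE), narrowly missed the threshold (limma, adjusted p = 0.0501). CCL19, the CCR7 ligand that draws T cells and dendritic cells, had 3.42 to 5.22 in IC, against 1.86 to 2.75 in RM and 1.63 to 2.18 in CM, and its means of 4.16, 4.48 and 4.47 at 1, 4 and 6 weeks did not differ past the test.

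JAK3, the tyrosine kinase of cytokine receptors that use the common gamma chain, had 5.30, 5.52 and 5.79 in IC at 1 week, 3.80, 3.49 and 4.53 at 4 weeks and 3.36, 3.81 and 4.78 at 6 weeks, against 2.21 to 2.97 in RM and 2.04 to 2.81 in CM. Every value of 1 week was above every later one. JAK3 fell by 1.59 ± 0.32 (SE) at 4 weeks and by 1.55 ± 0.32 (SE) at 6 weeks relative to 1 week (limma, adjusted p = 0.00482 and 0.00424).

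TLR6 is the partner of TLR2 in sensing diacylated lipopeptides. It had 4.06, 4.01 and 4.05 in IC at 1 week, 3.02, 3.46 and 4.21 at 4 weeks and 3.01, 3.18 and 3.44 at 6 weeks, against 2.03 to 2.72 in RM and 1.83 to 2.33 in CM. It fell by 0.83 ± 0.23 (SE) at 6 weeks relative to 1 week (limma, adjusted p = 0.0237), but without pig 7 or 9 of 1 week or pig 2 or 3 of 6 weeks the adjusted p was 0.0660 to 0.0828.

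Marker means of macrophages and of T and NK cells are given beside these genes with no test of one against the other. Both marker means were lower at 4 weeks than at 1 week in IC. For macrophages the arrays of 4 weeks (5.92 to 7.02) overlapped with those of 1 week (6.43 to 6.57). IL18 averaged 5.80 at 4 weeks and 5.28 at 1 week, and CCL19 averaged 4.48 at 4 weeks and 4.16 at 1 week. Neither of these differences passed the test. Macrophage markers were measured for 11 genes, of which CD14 and MARCO were at or below 3 in all arrays, and their mean level was 5.39 to 7.02 in IC arrays, 3.76 to 4.56 in RM arrays and 3.95 to 4.37 in CM arrays. Within IC the mean was 6.51 at 1 week, 6.35 at 4 weeks and 5.76 at 6 weeks, highest in pig 22 at 4 weeks (7.02) and pig 5 at 6 weeks (6.20), the pigs that were highest in ACP5 at those stages. Of the 9 macrophage genes tested, 0 rose and 2 fell at 6 weeks relative to 1 week, where 6.61% of all tested rose and 9.29% fell. Of the 1272 other tested probe sets with every IC array above every other array, 3.30% rose and 20.9% fell. Markers of T and NK cells, 12 genes, had a mean of 3.43 at 1 week, 2.59 at 4 weeks and 2.57 at 6 weeks in IC, against 2.03 to 2.40 in RM arrays and 2.07 to 2.27 in CM arrays, with CD4, PRF1 and FOXP3 at or below 3 in all arrays. B and plasma cell markers, 5 genes, averaged 5.42, 5.12 and 4.51 in IC at 1, 4 and 6 weeks. Neutrophil markers, 5 genes, averaged 1.07, 0.90 and 1.02. Mast cell markers, 2 genes, were instead higher at 4 weeks, with 3.41, 4.38 and 3.93, and the 1 gene of them tested was called higher at 4 weeks relative to 1 week. The part of cell numbers in the levels of ACP5, IL18, CCL19, JAK3 and TLR6 was not tested.

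RPS6KA1, or RSK1, a serine/threonine kinase activated by ERK, had 5.23, 5.25 and 5.22 in IC at 1 week, 3.62, 4.03 and 4.58 at 4 weeks and 3.49, 3.43 and 4.13 at 6 weeks, against 2.11 to 2.88 in RM and 2.13 to 2.38 in CM. The 3 pigs of 1 week were nearly equal and above all later values. It fell by 1.16 ± 0.24 (SE) at 4 weeks and by 1.55 ± 0.24 (SE) at 6 weeks relative to 1 week (limma, adjusted p = 0.00505 and 0.000807).

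CENPH, a constitutive protein of the inner kinetochore, needed to hold chromosomes in mitosis, had 4.98, 5.01 and 5.27 in IC at 1 week, 3.29, 4.25 and 3.51 at 4 weeks and 3.49, 3.09 and 4.21 at 6 weeks, against 1.82 to 2.55 in RM and 1.82 to 2.55 in CM. It fell by 1.40 ± 0.28 (SE) at 4 weeks and by 1.49 ± 0.28 (SE) at 6 weeks relative to 1 week (limma, adjusted p = 0.00484 and 0.00262). Of 33 other genes of the cell cycle measured, 30 had their highest IC mean at 1 week and 3 (MCM4, KIF20A and FOXM1) at 6 weeks. Of these genes 13 were tested, of which 9 fell at 4 weeks and 6 at 6 weeks relative to 1 week, 0 rose, and the others did not pass. Of all tested, 6.42% fell at 4 weeks and 9.29% at 6 weeks relative to 1 week. The mean level of the 33 was 4.30 at 1 week, 3.19 at 4 weeks and 3.37 at 6 weeks in IC, against 2.55 to 3.24 in RM arrays and 2.53 to 2.73 in CM arrays. TOP2A, the DNA topoisomerase of dividing cells, averaged 6.16, 4.21 and 4.37 in IC at 1, 4 and 6 weeks, against 2.52 in CM.

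LOC574051, a locus given by this identifier alone, had the steepest fall of the named genes. It had 7.08, 6.72 and 6.66 in IC at 1 week, 4.00, 4.33 and 5.20 at 4 weeks and 3.43, 3.81 and 5.14 at 6 weeks, against 0.99 to 2.33 in RM and 1.85 to 2.88 in CM. It fell by 2.31 ± 0.39 (SE) at 4 weeks and by 2.69 ± 0.39 (SE) at 6 weeks relative to 1 week (limma, adjusted p = 0.00149 and 0.000643).

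Of the intracellular genes, MYO5A and MOCS2 were lower at 6 weeks than at 1 week. MYO5A, an actin motor that carries vesicles, had 4.97, 5.26 and 5.24 in IC at 1 week, 4.33, 4.82 and 4.63 at 4 weeks and 4.08, 3.83 and 4.47 at 6 weeks, against 1.58 to 2.69 in RM and 2.39 to 2.69 in CM. It fell by 1.03 ± 0.24 (SE) at 6 weeks (limma, adjusted p = 0.00872). MOCS2, a gene of molybdenum cofactor synthesis, had 4.47, 4.74 and 4.13 at 1 week, 3.78, 4.27 and 4.01 at 4 weeks and 3.505, 3.37 and 3.51 at 6 weeks in IC, against 1.44 to 2.61 in RM and 2.00 to 2.77 in CM, and fell by 0.99 ± 0.23 (SE) at 6 weeks (limma, adjusted p = 0.00817).

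MCUB and HSPA8 were higher at 4 weeks. MCUB encodes a subunit of the mitochondrial calcium uniporter that lowers calcium uptake. It had 4.35, 3.59 and 3.67 in IC at 1 week, 4.45, 4.90 and 4.75 at 4 weeks and 3.54, 3.66 and 4.18 at 6 weeks, against 1.74 to 2.78 in RM and 2.12 to 2.34 in CM. It rose by 0.83 ± 0.26 (SE) at 4 weeks relative to 1 week (limma, adjusted p = 0.0471), a call at the edge of the threshold that was lost with the pig as a replicate block (adjusted p = 0.0528), under either other scaling of the arrays (adjusted p = 0.0520 and 0.0678), and without pig 8 or 9 of 1 week or any pig of 4 weeks (adjusted p = 0.0636 to 0.164).

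The HSPA8 probe set, assigned to the constitutive HSC70 chaperone, had 3.10, 3.40 and 3.34 in IC at 1 week, 3.78, 4.40 and 3.94 at 4 weeks and 3.65, 3.48 and 4.12 at 6 weeks, against 2.02 to 2.63 in RM and 2.08 to 2.63 in CM. It rose by 0.76 ± 0.21 (SE) at 4 weeks relative to 1 week (limma, adjusted p = 0.0245), and lost the call without pig 20 of 4 weeks or pig 7 or 9 of 1 week (adjusted p = 0.0863, 0.0883 and 0.0662).

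The other 8 named genes passed no test between stages. The homeobox factor PKNOX2 had 3.35 to 5.21 in IC, against 1.58 to 2.31 in RM and 1.56 to 2.13 in CM, and the basic helix-loop-helix factor TCFL5 had 3.78 to 4.53 in IC, against 2.07 to 2.76 in RM and 2.01 to 2.32 in CM. The palmitoyltransferase ZDHHC14 had 3.54 to 4.31 in IC, against 1.41 to 2.07 in RM and 1.66 to 1.91 in CM, and a gap of 1.46. VWA5A, TMEM26, TRIM52, TOR3A (an ATPase of the torsin family) and INPP5B (an inositol polyphosphate phosphatase) had IC means of 4.38, 4.49, 3.60, 3.90 and 3.47, RM means of 2.15, 2.27, 2.31, 2.28 and 2.39, and CM means of 1.97, 1.77, 2.64, 2.03 and 2.22.

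**Figure D3:**
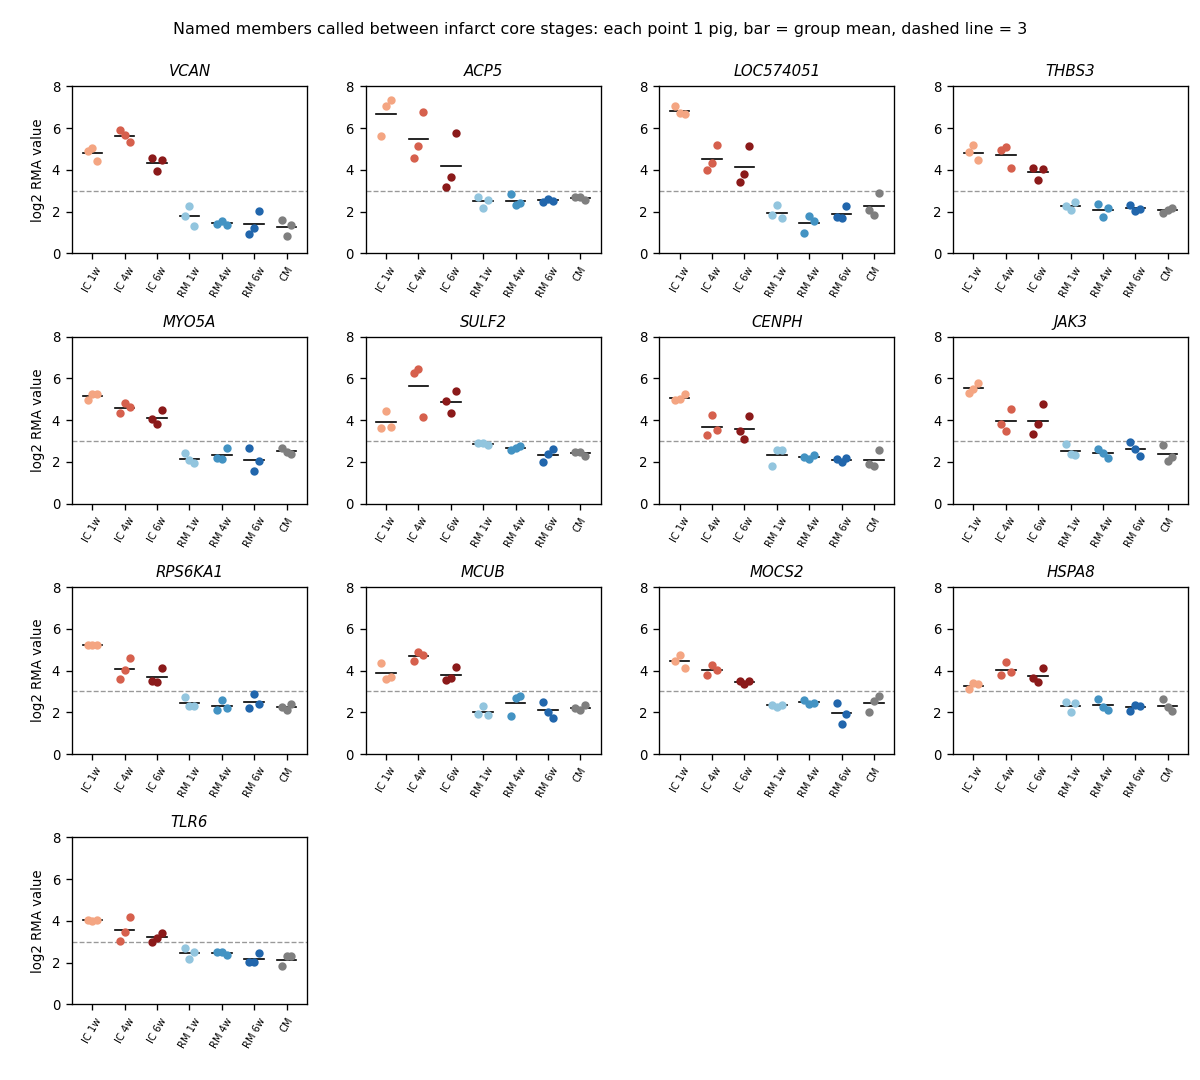
Log2 RMA values of the 13 named genes with a called difference between IC stages, 1 point per pig and a bar for the mean of 3 pigs, in IC at 1, 4 and 6 weeks, RM at 1, 4 and 6 weeks and CM. JAK3, CENPH, RPS6KA1 and LOC574051 are highest in all 3 pigs of 1 week, VCAN and MCUB have their highest mean at 4 weeks, and the RM and CM points stay below the dashed line at 3.

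The 4 probe sets with the highest IC means carried no symbol. The first of them in rank had an IC mean of 9.24 ± 1.67 (SD, n = 9), with 11.04, 10.78 and 10.93 in IC at 1 week, 9.46, 8.77 and 10.01 at 4 weeks and 6.56, 6.86 and 8.76 at 6 weeks, against 1.27 to 2.83 in RM and a mean of 2.08 in CM. It fell at each later stage relative to 1 week, by 1.51 ± 0.48 (SE) at 4 weeks and by 3.53 ± 0.48 (SE) at 6 weeks, and by 2.02 ± 0.48 (SE) at 6 relative to 4 weeks (limma, adjusted p = 0.0470, 0.000484 and 0.0240).

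The fourth in rank stayed very low outside IC, with 0.62 to 1.01 in RM and 0.61 to 0.97 in CM, and had 7.34, 7.93 and 7.50 in IC at 1 week, 6.29, 6.79 and 6.09 at 4 weeks and 5.00, 5.50 and 5.43 at 6 weeks. The IC values of the 3 stages did not overlap. It fell by 1.20 ± 0.18 (SE) at 4 weeks and by 2.28 ± 0.18 (SE) at 6 weeks relative to 1 week, and by 1.08 ± 0.18 (SE) at 6 relative to 4 weeks (limma, adjusted p = 0.000827, 3.8e-06 and 0.0031). Its gap of 3.99 was the widest of the 94.

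The second in rank averaged 8.60, 7.51 and 6.50 in IC at 1, 4 and 6 weeks, against 1.41 in RM and 1.13 in CM, and fell by 2.10 ± 0.36 (SE) at 6 weeks relative to 1 week (limma, adjusted p = 0.00159). Others had their lowest level at 1 week. A probe set with no symbol, ranked 11 by IC mean, had 3.86, 4.70 and 3.95 in IC at 1 week, 6.27, 6.95 and 5.49 at 4 weeks and 5.71, 4.75 and 6.29 at 6 weeks, against 1.02 to 1.56 in RM and 1.22 to 1.35 in CM, and rose by 2.06 ± 0.34 (SE) at 4 weeks and by 1.41 ± 0.34 (SE) at 6 weeks relative to 1 week (limma, adjusted p = 0.00136 and 0.0104). The third in rank averaged 5.67, 7.37 and 7.27 in IC at 1, 4 and 6 weeks, against 1.77 in RM and 1.68 in CM, and its stage differences did not pass the test.

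Over the 94 probe sets, 27 differed between 4 and 1 weeks in IC, 18 of them higher and 9 lower, where 12.2% of the 12404 probe sets tested did (5.74% higher and 6.42% lower). Between 6 and 1 weeks 29 differed, 5 higher and 24 lower, where 15.9% of all did (6.61% higher and 9.29% lower). Between 6 and 4 weeks 7 differed, all lower, where 3.85% of all did (2.02% higher and 1.82% lower). The median difference of the 94 was 0.14, -0.18 and -0.40 in the 3 comparisons, where that of all tested was -0.03, -0.02 and -0.01. The comparisons share their arrays in pairs, and 46 of the 94 passed in at least 1 of them, 13 of these with a symbol.

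The counts of calls depended on single arrays, and so did the share of all tested. Without pig 9 of 1 week 16 of the 94 differed between 4 and 1 weeks, where 4.57% of all tested did. Between 6 and 4 weeks 4 differed without pig 20 of 4 weeks (4.01% of all) and 16 without pig 5 of 6 weeks (6.65% of all). Fits of the 2 stages alone gave 16, 15 and 0, where 3.66%, 7.81% and 0.121% of all passed.

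**Figure D4:**
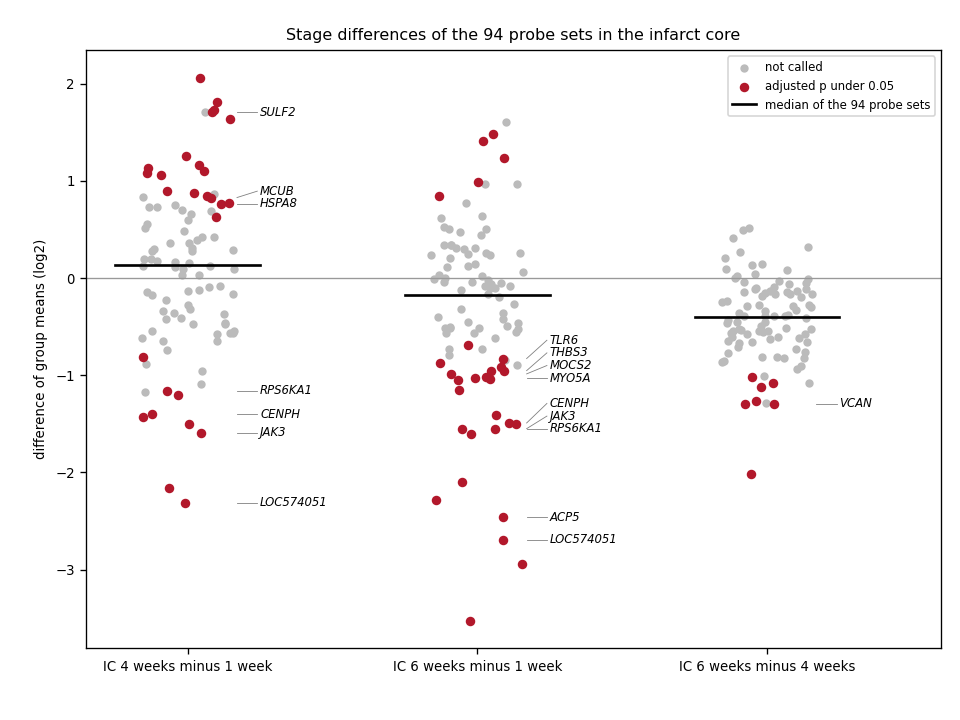
Differences between IC stages on the log2 scale for the 94 probe sets, with the 13 named genes that passed the test labelled in the comparisons in which they passed. The black line is the median of the 94, at 0.14, -0.18 and -0.40, and the called points between 6 and 4 weeks all lie below 0.

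The highest stage mean fell at 1 week in 38 probe sets, at 4 weeks in 51 and at 6 weeks in 5 (40.4%, 54.3% and 5.32%), whereas the shares were 38.9%, 30.2% and 30.9% of all tested. Few peaks at 6 weeks were a feature of core-high probe sets in general: among the 1272 other tested probe sets with every IC array above every other array, 49.2%, 43.8% and 7.00% were highest at 1, 4 and 6 weeks. Of those, 9.36% were called higher at 4 weeks relative to 1 week and 20.9% lower at 6 weeks relative to 1 week, and the median of 6 minus 4 weeks was -0.24. No test was made of the 94 against them.

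Cardiomyocyte markers, 14 genes all above 3 in all arrays, moved the other way at 6 weeks. Their mean was 10.77, 10.44 and 10.98 in IC at 1, 4 and 6 weeks, 10.74 to 11.39 in RM arrays and 10.54 to 11.08 in CM arrays, and 6 of 14 rose and 0 fell at 6 relative to 4 weeks. At 4 weeks relative to 1 week 0 rose and 3 fell, and at 6 weeks relative to 1 week 2 rose and 0 fell. Of all tested, 2.02%, 5.74% and 6.61% rose and 1.82%, 6.42% and 9.29% fell in these comparisons, in that order. By this mean the IC samples held muscle transcripts at a level near that of RM and CM, with 9.42 in pig 22 at 4 weeks as the lowest IC array and 11.26 in pig 2 at 6 weeks as the highest. Pig 2 was also the lowest IC array for 33 of the 94 probe sets, and pig 20 at 4 weeks the highest for 26. In IC, pig 20 had a cardiomyocyte marker mean of 10.998. Pig 22, with the lowest such mean, was the highest IC array for 9 of the 94. These counts were not made over all tested probe sets. Markers of activated fibroblasts, 12 genes, averaged 8.27, 8.42 and 7.91 in IC at 1, 4 and 6 weeks, against 5.58 to 6.06 in RM arrays and 5.31 to 5.80 in CM arrays. The part of tissue make-up in the stage differences was not tested.

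Labelling controls, 24 probe sets for spiked transcripts, averaged 3.34 to 4.93 in IC arrays of 1 week, 5.22 to 5.76 in those of 4 weeks, 4.56 to 5.50 in those of 6 weeks, 4.12 to 4.94 in RM arrays and 4.35 to 4.73 in CM arrays. They differed between IC stages as well, and their part in the stage differences was not tested. The number of probe sets above 3 was 12118 to 12426 in IC arrays, 11897 to 12163 in RM arrays and 11919 to 11965 in CM arrays.

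Another probe set of the same gene often gave a different picture. Of the 27 genes 13 had 1 or more further probe sets, 23 in all, and for 8 of these genes a further probe set was above 3 in RM or CM. For 6 (FN1, VCAN, TSKU, TRIM52, MOCS2 and HSPA8) it was above 3 in all 12 RM and CM arrays, so that by this measure these genes were not above 3 in the infarct core alone. For the other 5 (TMEM26, SULF2, MYO5A, TCFL5 and INPP5B) every further probe set was at or below 3 in RM and CM, but none was above 3 in all IC arrays. It was above 3 in 8 of the 9 IC arrays for MYO5A, in 7 for TMEM26 and in 5 each for SULF2 and INPP5B. That of TCFL5 was at or below 3 in IC as well, with 1.65 to 2.09 in IC, against 1.53 to 2.08 in RM and 1.82 to 1.97 in CM.

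The brightest FN1 probe set had 10.93 to 11.74 in IC, against 7.14 to 8.33 in RM and 6.56 to 7.51 in CM, with IC minus CM at 4.46. A further VCAN probe set had 7.33 to 9.01 in IC, against 4.08 to 5.30 in RM and 3.84 to 4.47 in CM, with IC minus CM at 4.26. All IC values of both were above all RM and CM values. The further VCAN probe set did not pass between 6 and 4 weeks, at -0.82 ± 0.28 (SE; limma, adjusted p = 0.111), nor did another at -0.40 ± 0.35 (SE; adjusted p = 0.575), unlike the one among the 94. TSKU had 5.63 to 6.54 in IC, against 3.98 to 5.04 in RM and 3.79 to 5.04 in CM, by its further probe set.

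For 2 of the 8 genes with a further probe set above 3 outside IC, the brightest further probe set ran the other way. That of HSPA8 had 9.06 to 10.22 in IC, against 9.64 to 10.30 in RM and 10.07 to 10.66 in CM, so that IC minus CM was -0.77, where the HSPA8 probe set among the 94 gave 1.37. That of MOCS2 had 3.30 to 3.96 in IC, against 3.26 to 4.15 in RM and 3.79 to 4.34 in CM, with IC minus CM at -0.37, where the one among the 94 gave 1.54. The other further HSPA8 probe sets were higher in IC, with IC minus CM at 0.85 and 1.40. The stage calls of HSPA8 and MOCS2 did not recur in the further probe sets tested. For 4 against 1 weeks the brightest further HSPA8 probe set was at -0.57 ± 0.21 (SE) and the one with 0.85 at 0.30 ± 0.19 (SE) (limma, adjusted p = 0.0808 and 0.318). The brightest further MOCS2 probe set was at -0.02 ± 0.19 (SE) for 6 against 1 weeks (adjusted p = 0.957). The HSPA8 probe set with 1.40 was above 3 in too few arrays to be tested, and averaged 2.17 at 1 week and 3.25 at 4 weeks in IC. The assignment of these members to HSPA8 and MOCS2 is that of the platform table and was not tested here. For C1QTNF6 a further probe set had 3.42 to 4.08 in IC, 3.03 to 3.94 in RM and 2.88 to 3.53 in CM. For TRIM52 one had 6.61 to 7.52 in IC, 6.10 to 6.69 in RM and 6.92 to 6.96 in CM, and it rose by 0.52 ± 0.15 (SE) at 4 weeks relative to 1 week (limma, adjusted p = 0.0315), where the one among the 94 did not pass. A further THBS3 probe set had 4.78 to 6.78 in IC, against 1.97 to 3.29 in RM and 1.72 to 2.62 in CM. It fell by 1.23 ± 0.33 (SE) at 6 weeks relative to 1 week in the same fit (limma, adjusted p = 0.0178), as the one among the 94 did.

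**Figure D5:**
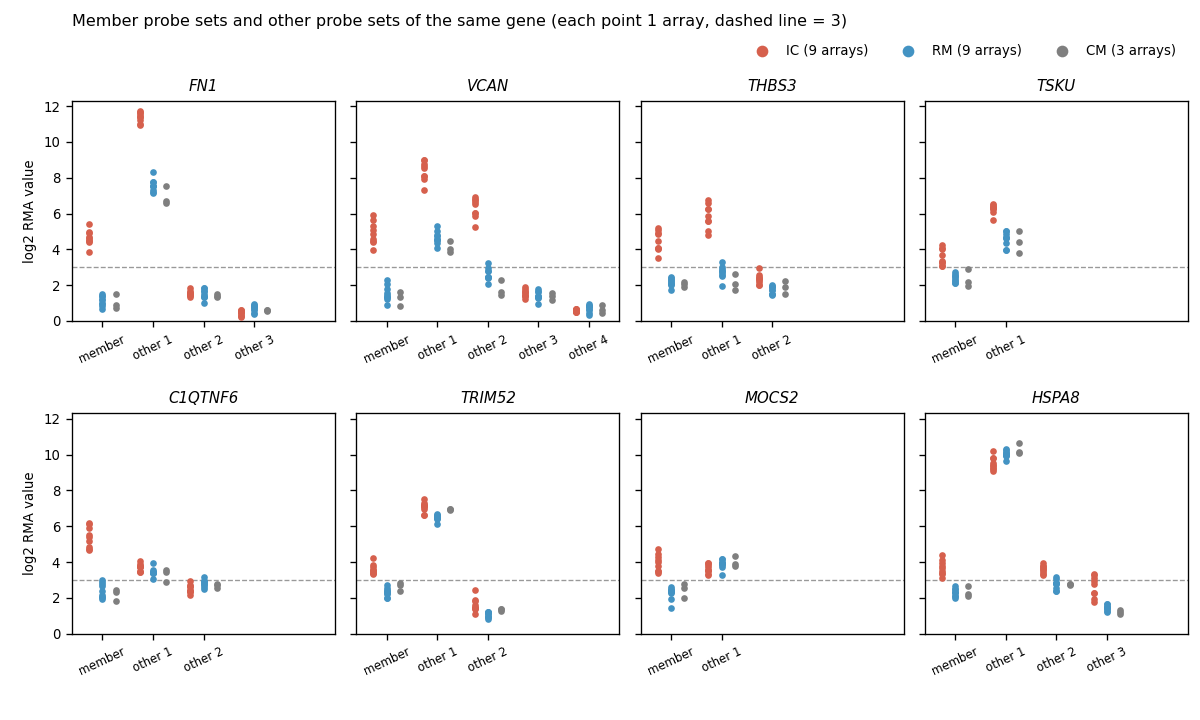
Log2 RMA values of the 8 genes with a further probe set above 3 outside IC, 1 point per array (9 IC, 9 RM and 3 CM), for the probe set among the 94 (left) and for the others of the gene in order of IC mean. For FN1 and VCAN both the member and the brightest other probe set are higher in IC, whereas for HSPA8 and MOCS2 the brightest other probe set is not.

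A comparison of RM with CM was limited by the choice, which held every value of both at or below 3 and so barred a clear rise in RM. In limma, 1 of the 94 (1.06%) differed between RM at 1 week and CM, where 1.14% of all tested did, and 0 at 4 weeks and 0 at 6 weeks, where 1.09% and 0.202% of all did. At an unadjusted p under 0.05 the counts were 9, 7 and 2 of the 94, where 1747, 2049 and 1537 of the 12404 probe sets tested passed. By sign alone 65, 72 and 50 were higher and 29, 22 and 44 lower in RM at 1, 4 and 6 weeks than in CM. Signs were not counted over all tested probe sets, and the 94 are not replicates of one another, so no rise in RM is read from them. The median differences were 0.13, 0.11 and 0.02, where those of all tested were 0.02, 0.01 and -0.03. The one called, which has no symbol, had 2.72, 2.98 and 2.63 in RM at 1 week, against 1.83, 1.78 and 2.04 in CM, and was higher by 0.89 ± 0.19 (SE, adjusted p = 0.034), a call lost without pig 7 or 8 of RM or pig 30 or 31 of CM. The highest of the 12 arrays outside IC was in RM at 1 week for 35 of the 94, in RM at 4 weeks for 27, in RM at 6 weeks for 19 and in CM for 13. Each of these groups has 3 arrays, and the same count was not made over all tested probe sets.

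Across the IC arrays the 94 varied together about as much as the 1272 other core-high probe sets. The mean pairwise Pearson r over the 9 IC arrays was 0.175 (0.174 after each stage was centred), where that of the other core-high ones was 0.190 (0.169) and that of all tested 0.0068 (0.0083). Their spread between pigs of 1 IC stage was wider than that of all tested, with a median SD of 0.37 against 0.25.

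Over all 21 arrays, where the difference between IC and the rest sets most of a correlation, the probe set with the highest IC mean followed TMSB10, TPM4, CAPG and ACTG1, all actin-binding or cytoskeletal genes, most closely (r = 0.982 to 0.987). The second in rank followed the FN1 probe set of the 94, ARPC1B, ACTG1 and EML4 (r = 0.984 to 0.988), and the third followed PRELP, BGN, AEBP1, ATP10A and MXRA7 (r = 0.962 to 0.975), of which PRELP and BGN are small leucine-rich proteoglycans. Among the named genes with the highest IC means, ACP5 followed VAV1, ITGB2, HMOX1, IRF8 and ARHGAP30 (r = 0.955 to 0.974), of which VAV1, ITGB2 and IRF8 are known from leukocytes. IL18 followed TMEM45A, PRRX1, RAI14, EPB41L2 and CALD1 (r = 0.977 to 0.979), of which PRRX1 is a transcription factor of mesenchymal cells and CALD1 an actin-binding protein. C1QTNF6 followed COLGALT1, RCN1, C1QTNF2, EML4 and GUSB (r = 0.976 to 0.978). These are descriptions over arrays that share their groups.

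The reverse pattern was rarer. Above 3 in all 12 RM and CM arrays and in no IC array were 26 probe sets, and 0 were above 3 in the 9 RM arrays alone. Within IC, 26 probe sets were above 3 in the 3 arrays of 1 week alone, 11 in those of 4 weeks alone and 8 in those of 6 weeks alone.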

How the data were processed

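Total RNA of 21 pig heart samples was measured on 1 array each. The authors made the deposited log2 values by robust multi-array average (RMA), which subtracts background, equalizes the quantiles of the arrays and summarizes the probes of a probe set, so low values are compressed and no depth applies. The deposited table holds 24123 probe sets without a filter, and its values were used unchanged. The study's own filter, above 3 in at least 10 arrays, removes all 94 members, which are above 3 in 9, so tests took in the 12404 probe sets that pass in 9 or more. They were made in limma 3.58.1 under R 4.3.3, with a mean for each of 7 groups (14 residual and 3.97 prior degrees of freedom), with Benjamini-Hochberg adjustment within each comparison and a threshold of 0.05. IC against CM and RM was not tested, because the choice of members used it. One further probe set that meets the thresholds is not reported here.

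IC and RM arrays of the same number come from the same pig by the labels. Deviations from the group means correlated between a pig's 2 arrays with r = 0.0731 to 0.481 over 9 pigs, and the pig as a random replicate block (consensus correlation 0.206) was run as an alternative. Members and gene lists were chosen with earlier results of these data known. Named were members with a symbol that were furthest above the other arrays or in a gene list, members called between IC stages, those nearest the threshold, those with a further probe set above 3 outside IC, and the genes closest to the highest members. HTRA4, TCFL5, VWA5A, TOR3A and INPP5B were named beyond this so that all 27 genes are given, as were TOP2A, MCM4, KIF20A, FOXM1 and the set of other core-high probe sets, after their values were seen. Probe sets with no symbol are given by their rank in IC mean. Symbols are those of the platform table, checked through gene identifiers, which changed 0. The authors' tables of fold changes and p-values were searched for names only and gave 0. Sequences and positions were not used here. On simulated data with 200 probe sets changed between IC at 4 and 1 weeks, the fit on 12404 probe sets recovered 134 at a log2 difference of 1 and 193 at 2, with 6 and 8 unchanged ones called. Figures were drawn with matplotlib 3.10.9.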

Additional observations from a re-analysis of the deposited data

Results flagged for a closer look

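The differences of named genes from CM were unequal between IC stages in 17 cases, each by the test of the difference itself in limma over the 12404 probe sets. At 4 weeks relative to 1 week they were -2.31 for LOC574051, -1.59 for JAK3, -1.40 for CENPH, -1.16 for RPS6KA1, 0.76 for HSPA8, 0.83 for MCUB and 1.70 for SULF2 (log2, adjusted p = 0.00149 to 0.0471). At 6 weeks relative to 1 week they were -2.69 for LOC574051, -2.46 for ACP5, -1.55 for RPS6KA1, -1.55 for JAK3, -1.49 for CENPH, -1.03 for MYO5A, -0.99 for MOCS2, -0.95 for THBS3 and -0.83 for TLR6 (adjusted p = 0.000643 to 0.0237). At 6 weeks relative to 4 weeks VCAN differed by -1.29 (adjusted p = 0.0189). The 3 comparisons share arrays in pairs, so these values are not independent of one another.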

How the results depend on the processing

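The 3 arrays per group limit the precision of each value. Of 130 alternative counts, 104 stayed within 1.5 times the count given above. Between 4 and 1 weeks the 27 calls were 15 after a filter of above 5 in at least 3 arrays, 16 in a fit of the 2 groups alone, 48 with array weights and 17 at an adjusted p under 0.01, and 16 to 31 with 1 array left out. Between 6 and 1 weeks the 29 calls were 18, 15 and 15 with that filter, the separate fit and that threshold, and 20 to 32 with 1 array left out. Here the shares of all tested were 18.1%, 7.81% and 5.59%, and 8.16% to 17% with 1 array left out. Between 6 and 4 weeks the 7 calls were 0 in the separate fit, 2 at an adjusted p under 0.01, and 4 to 16 with 1 array left out. Of all tested 0.121% and 1.12% were called, and 1.31% to 6.65% with 1 array left out. The 1 call between RM at 1 week and CM was 2 with a filter of above 3 in all 9 IC arrays, 0 in the separate fit, 2 with array weights, 0 at an adjusted p under 0.01, 0 with a difference of at least 1, and 0 to 1 with 1 array left out. The shares of all tested were 1.41%, 0.153%, 4.49%, 0.113% and 0.613% in that order, and 0.161% to 0.838% with 1 array left out. RM at 4 weeks against CM gave 3 calls with array weights in place of 0, where 13% of all tested were called. With the pig as a replicate block the counts were 26, 28 and 7 between IC stages and 1, 0 and 0 between RM and CM, and of the named genes' calls that of MCUB was lost. The block gave shares of all tested of 12.2%, 16% and 3.8% between IC stages and 1.23%, 1.23% and 0.177% between RM and CM. The 94 members were 59 with a threshold of 2.5, 146 with 4, 192 when 1 array might break the rule, 41 with a gap of at least 1, and 94 to 126 with 1 array left out. Centring arrays on their medians gave 83, all of them among the 94, and cyclic loess 105, of which 85 were. Of 281 alternative values of the 17 named differences, 240 kept direction and call, 41 lost the call and 0 reversed. The cause was not tested.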
